A study of Saccharomyces cerevisiae with 9 samples.

Results

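The 34 MRPL genes of the budding yeast Saccharomyces cerevisiae encode proteins of the large subunit of the mitochondrial ribosome. They were taken by systematic name from a gene count table of 5928 genes, and all 34 were present and passed the filter on low counts, which left 5646 genes tested. RNA was sequenced from 9 cultures of w303 yeast, mating type alpha, in 3 groups of 3 biological replicates: Pcf11-13, Pcf11-DNL and wild type. All strains carry ura3-1, trp1-delta, ade2-1 and his3-11,15, and a leu2 allele that the Pcf11-DNL label writes differently from the labels of the other groups. In every strain, the controls included, TRP1 replaces the chromosomal PCF11 gene and PCF11 is supplied from a plasmid with LEU2, so the wild type strain is itself a plasmid-complemented deletion. The plasmid carries pcf11-13 in Pcf11-13, an allele written pcf11-deltaN-link or Pcf11-deltaNL in Pcf11-DNL, and PCF11 in wild type. V5 and MYC tags are named in the Pcf11-DNL and wild type genotypes and not in that of Pcf11-13, and the plasmid is named pRS325 in the genotypes but low copy and centromeric in the descriptions. Cultures grew in YPAD, a rich glucose medium with adenine, at 30 °C, were set back to an OD600 of 0.2 and were harvested at 1.0 to 1.2; the growth text mentions caffeine, but every library is labelled glucose. Pcf11 is a subunit of the complex that cleaves the 3′ ends of pre-mRNAs and helps to end transcription.

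Mitochondrial ribosomes translate the few respiratory-chain and ATP synthase subunits that mitochondrial DNA encodes. In yeast their large-subunit proteins are all encoded in the nucleus, made on cytosolic ribosomes and imported, and a part of them descends from bacterial ribosomal proteins while the rest arose in mitochondria. Puf3, a Pumilio-family RNA-binding protein, binds the 3′ untranslated regions of many such mRNAs in yeast and promotes their decay in glucose. Cytosolic ribosomal protein genes, the contrast used here, are transcribed at far higher levels and are controlled with growth through Rap1, Fhl1, Ifh1 and Sfp1.

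Every one of the 34 MRPL genes held the core of the Puf3 recognition site, TGTANATA (N is any base), on the sense strand within 200 bases after its stop codon. The same core was found in 840 of 5901 protein-coding genes of the R64 reference (14.2%), and on the opposite strand of the same windows in 6 of the 34 (17.6%) against 13.4% of all genes. Of the cytosolic ribosomal protein genes, 4 of 82 for the large subunit (4.88%) and 2 of 56 for the small subunit (3.57%) held it. The sites below belong to the 14 MRPL genes given in full, and are shown because the core is the feature common to the whole list. Each is the 30 bases around the core nearest to the stop codon, 5′ to 3′ on the gene's strand, with the core in capitals, read from the R64 genome, the build named sacCer3 elsewhere. R64 is the sequence of strain S288C, and the w303 sequence was not used here.
MRPL27, chrII:768698-768727, plus strand: ttcaatatgcgTGTAAATActagttttcga
MRPL25, chrVII:637008-637037, minus strand: atgtctaatcaTGTAAATAattttgtgata
MRPL32, chrIII:119206-119235, plus strand: aaacttaagccTGTATATAgaaacttaatt
MRPL24, chrXIII:650856-650885, plus strand: tggttttccccTGTATATAaaaaagcatat
MRPL16, chrII:146900-146929, plus strand: ccatgtatacaTGTATATAactattgaaaa
MRPL28, chrIV:1386537-1386566, plus strand: ctgtctcctgcTGTAAATAactgatgatca
MRPL44, chrXIII:720854-720883, minus strand: acaagcaagccTGTAAATAatatatatgca
MRPL4, chrXII:1015467-1015496, plus strand: accctctctccTGTAAATAtatatatatat
MRPL36, chrII:483850-483879, minus strand: ataaacagcctTGTATATAccgcaacatat
MRPL22, chrXIV:303532-303561, minus strand: tattgtgattcTGTAAATAacaactagttt
MRPL38, chrXI:131135-131164, plus strand: aattaaccaccTGTATATAttgcttaaatt
MRPL9, chrVII:936023-936052, minus strand: tactacaatcaTGTACATAcatcaataata
MRPL13, chrXI:450358-450387, minus strand: ttttaatatccTGTACATAtatatactctt
MRPL39, chrXIII:251207-251236, minus strand: ttcatttatccTGTAAATAagtaatggata

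The base at the free position varied among the 34 genes. TGTAAATA was found after 16 of them (47.1%, against 4.32% of all protein-coding genes), TGTATATA after 13 (38.2%, against 7.29%), TGTACATA after 10 (29.4%, against 2.52%) and TGTAGATA after 1, MRPL3. A longer form of the core, with a C 2 bases before its leading T and searched on the sense strand after the data had been seen, was present in 28 of 34 (82.4%), against 4.27% of all. MRPL22 and MRPL28, both shown above, were among those without it. MRPL36, MRPL24 and MRPL28 were among the 8 genes with more than 1 core (23.5%, against 1.22% of all). The first core lay between 13 and 136 bases after the stop codon, with a median of 47.5, and within 100 bases in 31 of 34 genes. A match is a description of the letters and does not show binding in these cultures.

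**Figure D1:**
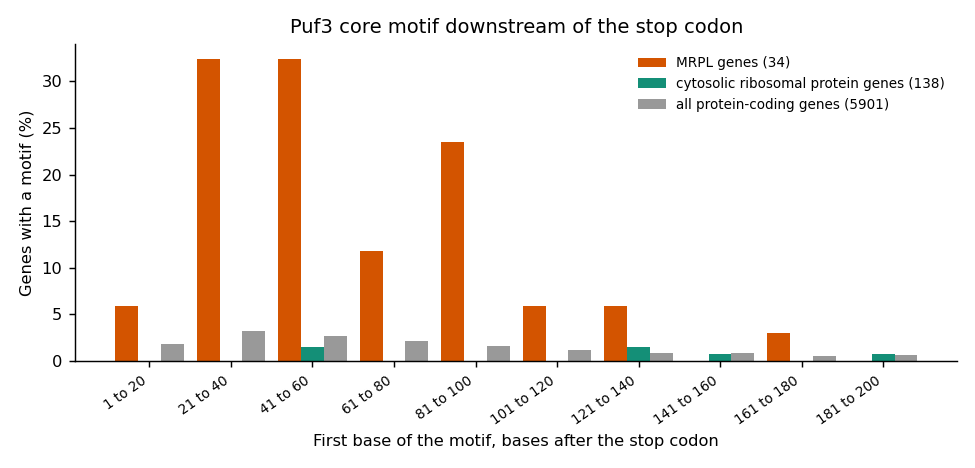
Share of genes (y axis, %) with a TGTANATA core that starts in each bin of 20 bases after the stop codon (x axis), for the 34 MRPL genes, the 138 cytosolic ribosomal protein genes and all 5901 protein-coding genes. The MRPL bars are tallest between 21 and 60 bases, at 32.4% in each of those bins, against 3.22% and 2.68% of all genes.

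In other lists of nuclear genes for mitochondrial translation the core was also common. It was present in all 12 of the other large-subunit genes, in 32 of 33 small-subunit genes (97%) and in all 12 aminoacyl-tRNA synthetase genes. It was present in 7 of 9 translation factor genes, 6 of 8 genes for ribosome assembly and 9 of 13 genes for translational activators of single mitochondrial mRNAs. Promoters of the MRPL genes, taken as 250 bases before to 50 after the start codon, held CCAAT (the Hap2/3/4/5 core) on either strand in 13 of 34 (38.2%), against 43.2% of all genes. AAATTTT, the centre of the element found before rRNA-processing genes, was present in 5 of 34 (14.7%, against 23.2% of all), and GATGAG, the core of the PAC element, in 6 of 34 (17.6%, against 20.4%). PUF3 itself had 33.7, 34.3 and 27.6 CPM in Pcf11-13, 27.7, 25.4 and 30.6 CPM in Pcf11-DNL and 34.1, 28.6 and 29.0 CPM in wild type. CPM give a gene's counts as a rate of its library's total, after TMM, edgeR's correction for differences in composition between libraries. The 3 groups overlapped for PUF3. Its log2 fold change against wild type was 0.07 for Pcf11-13 (edgeR, adjusted p = 0.508) and −0.13 for Pcf11-DNL (edgeR, adjusted p = 0.401).

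Library totals lay between 11372819 and 15906466 expected counts. PCF11, the altered gene, averaged 648 ± 32.3 CPM in Pcf11-13, 67.4 ± 2.56 CPM in Pcf11-DNL and 84.7 ± 3.05 CPM in wild type (SD, n = 3 each). In Pcf11-13 the allele, the level of PCF11 RNA and the tags named in the genotype all differ from wild type, and they cannot be told apart. Relative to unscaled totals, the alpha-specific genes MF(ALPHA)1, MF(ALPHA)2, STE3 and SAG1 lay between 111 and 1051 CPM in the 9 libraries. Of the a-specific genes, MFA2 was at 0, MFA1 at no more than 0.0879 CPM, AGA2 at no more than 1.21 CPM, and STE2 and BAR1 between 6.44 and 20.0 CPM. The fold changes of these genes, unlike the levels just given, use the TMM scaling. All 4 alpha-specific genes were lower in Pcf11-13 than in wild type, by 0.31 (MF(ALPHA)1) to 1.04 (MF(ALPHA)2) on the log2 scale. STE2 and BAR1 were higher, at 0.40 and 0.62 (edgeR, adjusted p of at most 0.00953 for each of the 6 genes). In Pcf11-DNL 3 of the 4 alpha-specific genes were lower, at −0.57 (SAG1), −0.23 (STE3) and −0.16 (MF(ALPHA)1), with an edgeR adjusted p of at most 0.0285, and STE2 and BAR1 did not pass. Their part in the MRPL values was not tested. Among replicates, wild type 1 was the most unlike its group, with a chi-square per degree of freedom of 10.7 and 10.1 against the other wild type libraries, while other replicate pairs lay between 2.5 and 4.7. Calls that change without it are given beside the counts or the gene.

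Set against their coding length, the MRPL genes spanned a moderate range of levels. Not divided by length, their median over the 9 libraries was 42.9 CPM, against 63.9 CPM over all genes and 995 CPM over the cytosolic ribosomal protein genes. Levels per length are given for the MRPL genes only, so that comparison mixes level with gene length. MRPL9, of the bacterial L3 family that reaches toward the peptidyl transferase centre, was the highest per length at 97.5 CPM per kb. It had 80.7, 78.5 and 83.1 CPM in Pcf11-13, 77.2, 78.8 and 72.2 CPM in Pcf11-DNL and 73.5, 81.6 and 85.0 CPM in wild type. All 3 groups overlapped for it, with a log2 fold change of 0.01 ± 0.06 in Pcf11-13 (SE; edgeR, adjusted p = 0.909) and −0.08 ± 0.06 in Pcf11-DNL (edgeR, adjusted p = 0.378). MRPL13, a protein of mitochondrial ribosomes with no bacterial counterpart, followed at 94.8 CPM per kb, with 80.2, 79.2 and 80.7 CPM in Pcf11-13, 69.1, 71.1 and 74.2 CPM in Pcf11-DNL and 73.2, 70.6 and 79.8 CPM in wild type. Its Pcf11-DNL libraries were all below its Pcf11-13 libraries, and its wild type libraries overlapped both.

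The lowest levels per length belonged to short genes. MRPL39, the homologue of bacterial L33 with 213 coding bases, had 15.2 CPM per kb: 3.17, 2.53 and 2.98 CPM in Pcf11-13, 3.97, 2.95 and 3.0 CPM in Pcf11-DNL and 3.46, 3.09 and 4.06 CPM in wild type. Its groups overlapped, and its interval was the widest of the 34, with a log2 fold change of −0.30 ± 0.21 in Pcf11-13 (edgeR, adjusted p = 0.219). MRPL25 was next at 29.0 CPM per kb, MRPL33 had 30.4 and MRPL38 had 31.8. Across the 34 genes the level per length rose with coding length (Spearman's rho 0.662 over 34 genes, which share their libraries). Not every short gene was low: MRPL37, with 318 coding bases, had 67.1 CPM per kb, and MRPL51, with 423, had 63.3. The measure divides by coding length alone, without untranslated regions or fragment size, and its own part in this trend was not tested. The spread of levels among them, as the SD of log2 CPM per kb, was 0.624 ± 0.00816 in Pcf11-13, 0.579 ± 0.0305 in Pcf11-DNL cultures and 0.584 ± 0.0277 in wild type (SD over 3 libraries each).

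In Pcf11-13, most MRPL genes stayed close to wild type while the cytosolic ribosomal protein genes fell. Of the 34, 9 rose, 4 fell and 21 did not pass the test (edgeR quasi-likelihood F test, adjusted over all genes tested, threshold 0.05). Over all genes tested 35.2% rose and 30.9% fell, 66.1% in either direction, against 38.2% of the MRPL genes. The median log2 fold change of the MRPL genes was 0.07, beside 0.03 for all genes, and their range was −0.39 to 0.33. Changes of more than 1.2-fold, whether called or not, were found in 7 of the 34 (20.6%), against 48.2% of all genes. The libraries of Pcf11-13 and wild type did not overlap for 10 MRPL genes that were higher and 3 that were lower, against 37 and 32.7% of all genes. The error of a single gene was similar, with a median SE of 0.0691 for the MRPL genes and 0.0593 for all genes. The 95% interval of the change stayed within 1.5-fold of no change for 31 of the 34, and within 1.2-fold for 17.

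The counts depended on single libraries. Without wild type replicate 1, which had the lowest MRPL share of its group, 4 MRPL genes were higher and 6 lower. MRPL1 (−0.13, edgeR, adjusted p = 0.0496) and MRPL38 (−0.32, edgeR, adjusted p = 0.0177) then passed, against −0.08 (edgeR, adjusted p = 0.244) and −0.18 (edgeR, adjusted p = 0.221) with all libraries, and MRPL9, which did not pass with or without it, moved to −0.05 on the log2 scale, against 0.01. The number of higher genes was 5 without Pcf11-13 replicate 3 or without wild type replicate 2. The number of lower genes was 1 without Pcf11-13 replicate 1 or wild type replicate 3, and 2 without Pcf11-13 replicate 2. With libraries scaled by their totals alone, the median of all genes moved to 0.25 on the log2 scale, against 0.03 with TMM, and the MRPL genes moved with it. Of the MRPL genes 22 were then higher and 1 lower, while 59.7% of all genes tested were higher. The MRPL median lay above that of all genes by 0.04 under both scalings (0.0373 with TMM, 0.0371 with totals), which move both medians alike. With single libraries left out that offset lay between 0.0061 (without Pcf11-13 replicate 3) and 0.0757 (without wild type replicate 3). Higher calls made up 79.7% of all calls with totals, against 53.3% with TMM. MRPL27, MRPL32, MRPL24 and MRPL4 kept their calls and directions under all 18 alternatives, as the only ones of the 13 to do so.

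**Figure D2:**
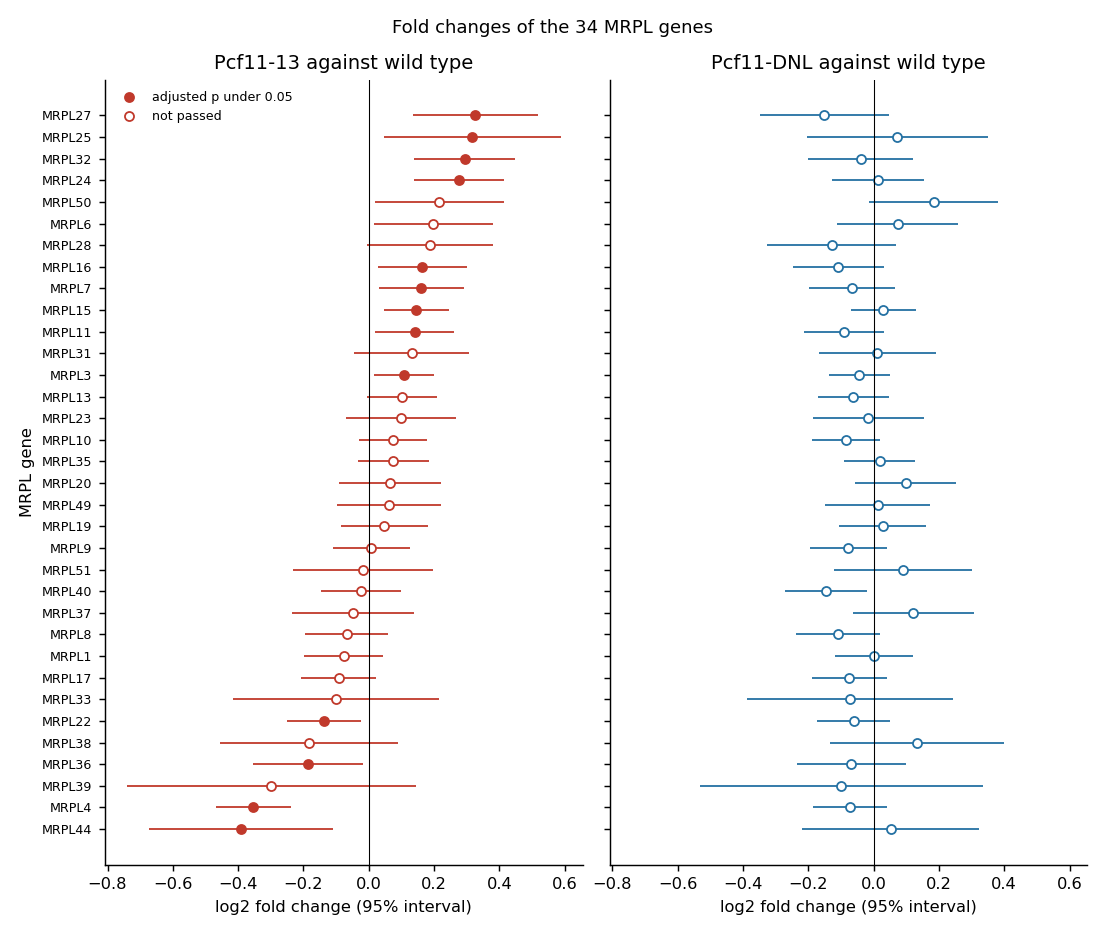
Log2 fold change (x axis) of each of the 34 MRPL genes (y axis, ordered by Pcf11-13) in Pcf11-13 (left) and Pcf11-DNL (right) against wild type; bars are 95% intervals and filled points passed an adjusted p of 0.05. In Pcf11-13, 13 points are filled, 9 to the right of 0 and 4 to the left; in Pcf11-DNL none is filled. The TMM scaling is used; with library totals MRPL22 and MRPL36 lie at 0.07 and 0.03, to the right of 0.

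MRPL27 (YBR282W, chromosome II, 768240 to 768680, plus strand), whose protein has counterparts in animal mitochondrial ribosomes but not in bacteria, rose the most. It had 27.8, 30.7 and 31.3 CPM in Pcf11-13, 20.4, 22.6 and 21.5 CPM in Pcf11-DNL and 20.4, 23.7 and 26.9 CPM in wild type. Each Pcf11-13 library was above every wild type library, with a log2 fold change of 0.33 ± 0.09 (SE; edgeR, adjusted p = 0.0045), and 0.24 without wild type replicate 1 (edgeR, adjusted p = 0.0194; range over alternatives 0.000203 to 0.0212). MRPL32 (YCR003W, chromosome III, 118620 to 119171, plus strand), of the bacterial L32 family, is cut by the m-AAA protease of the inner membrane before it joins the ribosome. It had 35.8, 37.0 and 35.3 CPM in Pcf11-13, 31.0, 28.2 and 26.5 CPM in Pcf11-DNL and 27.2, 29.1 and 31.6 CPM in wild type. The Pcf11-13 libraries stood above the other 6, and the log2 fold change was 0.29 ± 0.07 (edgeR, adjusted p = 0.00229). MRPL24 (YMR193W, chromosome XIII, 650036 to 650812, plus strand), of the bacterial L28 family, had 51.8, 52.5 and 54.1 CPM in Pcf11-13, 44.1, 44.7 and 43.2 CPM in Pcf11-DNL and 38.7, 44.6 and 46.9 CPM in wild type. It likewise separated Pcf11-13 from the rest, with a log2 fold change of 0.28 ± 0.07 (edgeR, adjusted p = 0.00143).

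MRPL25 (YGR076C, chromosome VII, 637104 to 637577, minus strand), found in fungal mitochondrial ribosomes, had 14.8, 17.5 and 14.6 CPM in Pcf11-13, 12.7, 14.7 and 12.2 CPM in Pcf11-DNL and 11.0, 11.3 and 15.1 CPM in wild type. Wild type replicate 3 lay within the Pcf11-13 range, so the groups overlapped although the test passed, with a log2 fold change of 0.32 ± 0.13 (edgeR, adjusted p = 0.0385). The call was lost without wild type replicate 1 (log2 fold change 0.24, edgeR, adjusted p = 0.118), wild type replicate 2 (0.25, edgeR, adjusted p = 0.14) or Pcf11-13 replicate 2 (0.22, edgeR, adjusted p = 0.182), over a range of 0.00271 to 0.182 in all. It was also lost with DESeq2 size factors (0.30, edgeR, adjusted p = 0.0513), with DESeq2's own test (0.30, DESeq2, adjusted p = 0.0545) and with only these groups in the fit (0.31, edgeR, adjusted p = 0.0619). MRPL16, of the bacterial L16 family at the peptidyl transferase region, had 33.7, 34.1 and 34.6 CPM in Pcf11-13, 28.8, 27.9 and 28.1 CPM in Pcf11-DNL and 28.2, 30.8 and 32.1 CPM in wild type. Its Pcf11-13 libraries were above all others, with a log2 fold change of 0.16 ± 0.06 (edgeR, adjusted p = 0.0344), but the call was lost under 11 of the 18 alternatives, among them leaving out wild type replicate 1 (0.12, edgeR, adjusted p = 0.136). Blocking on the replicate number, with these 6 libraries alone, also ended it (0.16, edgeR, adjusted p = 0.0645), while MRPL6, of the L6 family, and MRPL50, of the L9 family, gained calls at 0.20 and 0.22 (edgeR, adjusted p = 0.00895 and 0.0273).

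The other 4 that rose changed by less. MRPL7, of the L5 family in the central protuberance, had a log2 fold change of 0.16 (edgeR, adjusted p = 0.0305). MRPL15, found in fungal mitochondrial ribosomes, had 0.15 (edgeR, adjusted p = 0.0125), and MRPL11, of the L10 family at the base of the stalk, had 0.14 (edgeR, adjusted p = 0.0394). MRPL3, a mitochondria-specific protein, had the most counts of the 34, with 116 ± 3.69 CPM in Pcf11-13, 104 ± 3.18 CPM in Pcf11-DNL and 107 ± 1.02 CPM in wild type, and a log2 fold change of 0.11 (edgeR, adjusted p = 0.0385). For all 4 the Pcf11-13 libraries were above those of wild type. Without wild type replicate 1, MRPL3, MRPL7 and MRPL11 no longer passed, and each also failed without Pcf11-13 replicate 3.

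MRPL44 (YMR225C, chromosome XIII, 720960 to 721403, minus strand), a mitochondria-specific protein and the only one of the 34 genes with 2 coding exons, fell the most. It had 8.73, 10.7 and 7.98 CPM in Pcf11-13, 10.8, 12.9 and 13.8 CPM in Pcf11-DNL and 12.2, 11.0 and 12.9 CPM in wild type. All 3 Pcf11-13 libraries were below the other 6, with a log2 fold change of −0.39 ± 0.13 (edgeR, adjusted p = 0.0161). The call was lost without Pcf11-13 replicate 1 (−0.36, edgeR, adjusted p = 0.0528), Pcf11-13 replicate 3 (−0.31, edgeR, adjusted p = 0.0735) or wild type replicate 3 (−0.33, edgeR, adjusted p = 0.0662) and with library totals (−0.18, edgeR, adjusted p = 0.249), over a range of 0.00509 to 0.249.

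MRPL4 (YLR439W, chromosome XII, 1014491 to 1015450, plus strand), of the bacterial L29 family beside the exit of the peptide tunnel, fell with the smallest p of the list. It had 59.8, 57.2 and 54.5 CPM in Pcf11-13, 72.8, 65.8 and 70.0 CPM in Pcf11-DNL and 74.5, 69.9 and 74.97 CPM in wild type. Pcf11-13 was below both other groups in every library, with a log2 fold change of −0.35 ± 0.05 (edgeR, adjusted p = 2.62e-05). SEC39, which ends 117 bases away on the opposite strand and encodes a vesicle-tethering subunit, fell by 0.94 on the log2 scale (edgeR, adjusted p = 1.09e-09); it was named after its values were seen. Whether reads were counted by strand is not stated in the sources used here. Other called genes also converge on changed neighbours. MRPL22 lies 283 bases from RPS3 (log2 fold change −0.56), MRPL32 lies 403 from YCP4 (0.52) and MRPL15 lies 508 from SPH1 (0.48). MRPL7 rose while SEC26, 401 bases away, fell by 0.27, and SSH1, 262 bases from MRPL27, did not pass. These neighbours too were named after their values were seen. The part of any neighbour in the values of MRPL4 and these genes was not tested.

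MRPL22 (YNL177C, chromosome XIV, 303686 to 304615, minus strand), of the L22 family that lines the peptide tunnel, had 61.8, 61.1 and 62.8 CPM in Pcf11-13, 64, 62.1 and 69.9 CPM in Pcf11-DNL and 67.4, 65.4 and 71.3 CPM in wild type. Pcf11-13 was below wild type in every library, with a log2 fold change of −0.14 ± 0.05 (edgeR, adjusted p = 0.0316), but the call was lost without Pcf11-13 replicate 1, Pcf11-13 replicate 2 or wild type replicate 3 (edgeR, adjusted p = 0.0616, 0.0844 and 0.147). MRPL36 (YBR122C, chromosome II, 483970 to 484503, minus strand), of the bacterial L31 family, had 31.3, 30.8 and 35.1 CPM in Pcf11-13, 33.5, 36.0 and 35.7 CPM in Pcf11-DNL and 32.2, 38.6 and 39.0 CPM in wild type. Its groups overlapped through wild type replicate 1 and Pcf11-13 replicate 3, with a log2 fold change of −0.19 ± 0.08 (edgeR, adjusted p = 0.0486). That call was lost under 9 alternatives, and without wild type replicate 1 the log2 fold change was −0.26 (edgeR, adjusted p = 0.00381; range over alternatives 0.00381 to 0.796). With library totals as the scaling, MRPL22 and MRPL36 turned to log2 fold changes of 0.07 and 0.03 (edgeR, adjusted p = 0.25 and 0.796).

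The 21 MRPL genes that did not pass lay between −0.30 for MRPL39 and 0.22 for MRPL50 on the log2 scale. MRPL50 and MRPL6 came closest to the threshold (edgeR, adjusted p = 0.0515 and 0.0535). Among the bacterial families, the log2 fold change was −0.08 for MRPL1 (L1, the mobile stalk), −0.07 for MRPL8 (L17), 0.07 for MRPL10 (L15), 0.10 for MRPL23 (L13), 0.06 for MRPL49 (L21) and −0.10 for MRPL33 (L30). Among the mitochondria-specific genes it was −0.09 for MRPL17, 0.06 for MRPL20, 0.13 for MRPL31, 0.07 for MRPL35 and −0.05 for MRPL37. MRPL19, of the L11 family at the base of the stalk, and MRPL51, specific to mitochondria, each overlap another annotated gene, so their values of 0.05 and −0.02 are uncertain.

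**Figure D3:**
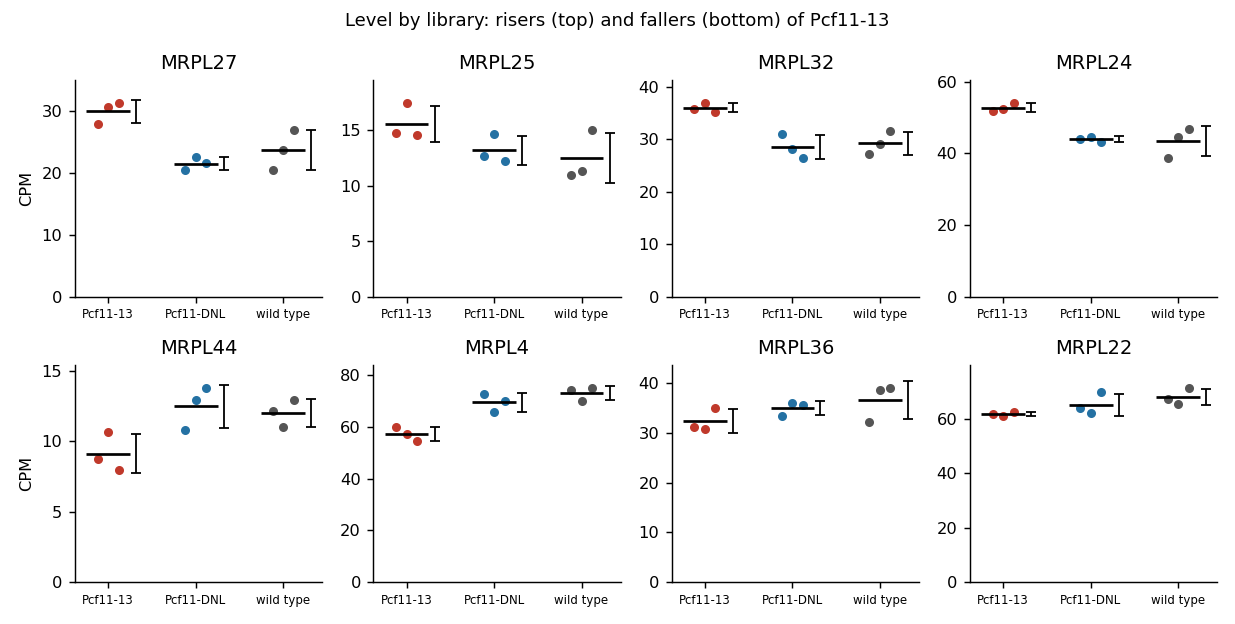
CPM (y axis) in each library of Pcf11-13, Pcf11-DNL and wild type (x axis) for the 4 MRPL genes with the highest and the 4 with the lowest log2 fold change among those past the threshold in Pcf11-13; horizontal bars are means and the brackets SDs, n = 3. In MRPL27, MRPL32 and MRPL24 the 3 Pcf11-13 points lie above all others, and in MRPL4 and MRPL44 below all others, while in MRPL25 and MRPL36 the points of Pcf11-13 and wild type overlap.

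By origin, 5 of the 21 genes of bacterial families rose and 3 fell, with a median log2 fold change of 0.05, and 4 of the 13 mitochondria-specific genes rose and 1 fell, with a median of 0.10. The background over all genes was 35.2% higher and 30.9% lower, against 23.8% and 30.8% higher in these groups. With library totals 13 and 9 of them were higher (61.9% and 69.2%, beside 59.7% of all genes) and 1 and 0 lower (beside 861 of all 5646 genes). The genes were also counted by the arrangement of the upstream neighbour. Of the 20 genes that diverge from it, among them MRPL27 and MRPL32, 7 rose and 1 (MRPL4) fell, with a median of 0.12. Of the 14 on the same strand as it, among them MRPL44 and MRPL22, 2 rose (MRPL24 and MRPL25) and 3 fell, with a median of −0.06. As shares, 35% of the divergent MRPL genes rose, beside 35.5% of all divergent genes, and 14.3% of the same-strand ones, beside 34.8%. As background for the genes that fell, 865 of all 2878 divergent and 879 of all 2758 same-strand genes fell. Over all genes tested the medians were 0.04 for divergent and 0.02 for same-strand genes, and no test of the split was made. With library totals 16 of the divergent MRPL genes were higher (80%, beside 60.5% of all divergent genes) and 1 lower (beside 425 of 2878). Of the same-strand ones 6 were higher (42.9%, beside 58.8% of all same-strand genes) and 0 lower (beside 436 of 2758). The median of the same-strand MRPL genes turned to 0.15, beside 0.23 for all same-strand genes. The split by CCAAT in the promoter gave medians of 0.11 for 13 genes with it and 0.01 for 21 without, and that by more than 1 or exactly 1 Puf3 core gave 0.06 for 8 and 0.07 for 26. Genes outside the mitochondrial ribosome that hold the core had a median of 0.04 (747 tested, 262 higher and 211 lower), against 0.03 for the 4803 without it. The change did not follow the level among the 34 (Spearman's rho 0.0206).

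In Pcf11-DNL none of the 34 MRPL genes passed the test in either direction, with edgeR or with DESeq2. Over all genes tested, 8.73% rose and 4.3% fell, 13% in either direction. At an unadjusted p under 0.05, 0 MRPL genes were higher and 1 lower, MRPL40, of the L24 family near the tunnel exit. MRPL40 had 67.5, 61.8 and 57.8 CPM in Pcf11-DNL and 69.1, 66.3 and 71.8 CPM in wild type, and Pcf11-DNL replicate 1 lay within the wild type range. Its log2 fold change was −0.15 ± 0.06 (edgeR, adjusted p = 0.112), and −0.21 without Pcf11-DNL replicate 1, where it passed (edgeR, adjusted p = 0.0465; range over alternatives 0.0465 to 0.381).

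The 34 changes in Pcf11-DNL lay between −0.15 and 0.18 on the log2 scale, with a median of −0.04 beside 0.0006 for all genes, and none exceeded 1.2-fold. The median was −0.06 without wild type replicate 1, and its direction turned without wild type replicate 3 (0.02) and with library totals (0.0072, beside 0.05 for all genes). All 34 intervals stayed within 1.5-fold of no change, and 23 within 1.2-fold. The lowest bound was −0.53 for MRPL39 and the highest 0.40 for MRPL38. Libraries did not overlap for 0 genes that were higher (17% of all genes) and 3 that were lower (15.8% of all), which were MRPL3, MRPL11 and MRPL28. These 3 had log2 fold changes of −0.04, −0.09 and −0.13, and none passed. The comparisons of Pcf11-13 and Pcf11-DNL share the wild type libraries, so their values are given side by side and not as independent results.

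Set directly against Pcf11-13, Pcf11-DNL had 3 MRPL genes higher and 11 lower, and 20 did not pass. The shares over all genes were 29.5% higher and 30.9% lower, 60.3% in either direction, and the median log2 difference was −0.07 for the MRPL genes and −0.02 for all genes. Libraries did not overlap for 3 higher and 12 lower MRPL genes (32.9% and 34.1% of all genes). With library totals as the scaling, 0 MRPL genes were higher and 22 lower, while 870 of all 5646 genes were higher and 2982 lower. Under all 18 alternatives 8 of the 14 MRPL calls held. MRPL27 showed the largest fall, at 20.4, 22.6 and 21.5 CPM in Pcf11-DNL against 27.8, 30.7 and 31.3 CPM in Pcf11-13, a log2 fold change of −0.48 ± 0.09 (edgeR, adjusted p = 0.000288). MRPL32 followed with −0.33 ± 0.07 (edgeR, adjusted p = 0.000977), and MRPL16 had −0.27 ± 0.06 (edgeR, adjusted p = 0.0018). In these the Pcf11-DNL libraries were all below those of Pcf11-13.

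MRPL28, a mitochondria-specific protein of the central protuberance, had 15.9, 14.3 and 15.1 CPM in Pcf11-DNL, 17.5, 18.2 and 20.8 CPM in Pcf11-13 and 17.4, 16.3 and 15.9 CPM in wild type. Pcf11-DNL was below Pcf11-13 throughout, with a log2 fold change of −0.32 ± 0.09 (edgeR, adjusted p = 0.00718), and neither mutant passed against wild type. The call of MRPL28 held under all 18 alternatives. The other 7 that were lower were MRPL24, MRPL11, MRPL7, MRPL13, MRPL10, MRPL3 and MRPL15, with log2 fold changes between −0.26 for MRPL24 and −0.12 for MRPL15. The call of MRPL10 was lost without Pcf11-13 replicate 3 (−0.13, edgeR, adjusted p = 0.0519) and that of MRPL13 without Pcf11-DNL replicate 1 (−0.14, edgeR, adjusted p = 0.0525), while that of MRPL15 was lost under 12 alternatives.

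MRPL44 and MRPL4 were higher in Pcf11-DNL than in Pcf11-13, by log2 fold changes of 0.44 ± 0.13 (edgeR, adjusted p = 0.00842) and 0.28 ± 0.05 (edgeR, adjusted p = 0.000307), and neither passed with library totals. MRPL38, of the L14 family, had 15.5, 14.1 and 14.5 CPM in Pcf11-DNL, 11.3, 12.1 and 12.0 CPM in Pcf11-13 and 10.4, 13.4 and 15.99 CPM in wild type. Its Pcf11-DNL libraries were above those of Pcf11-13, while wild type spanned both, and the log2 fold change was 0.32 ± 0.13 (edgeR, adjusted p = 0.0418). That call was lost without any 1 of the 6 libraries compared. Over the 3 groups together, 13 of the 34 differed (edgeR F test with 2 degrees of freedom, adjusted p under 0.05), against 68.8% of all genes. The number was 7 without Pcf11-13 replicate 3 and 23 with library totals.

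**Figure D4:**
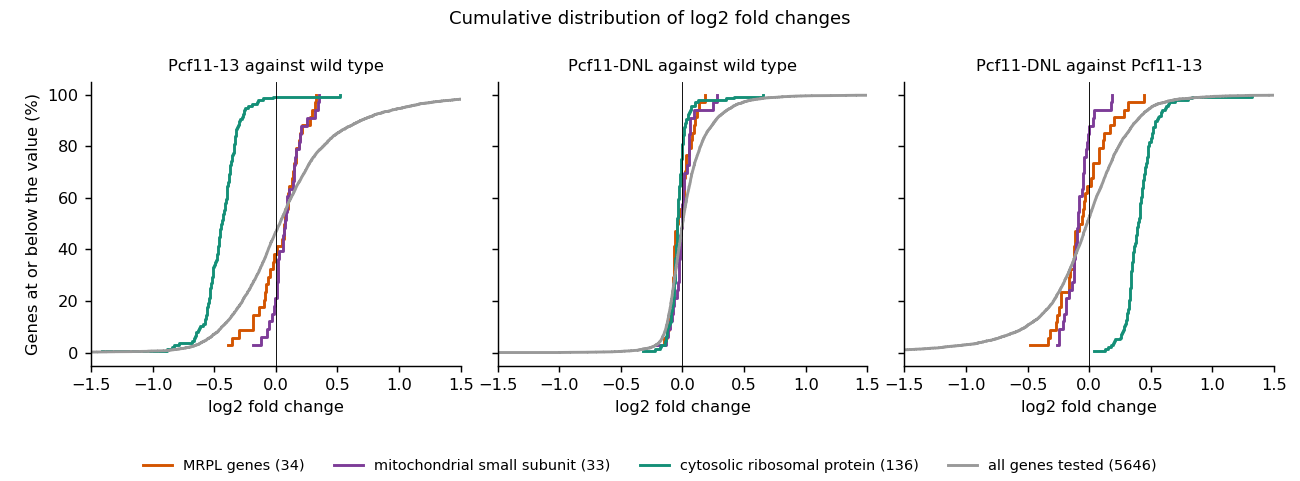
Cumulative share of genes (y axis, %) at or below each log2 fold change (x axis) for the 34 MRPL genes, the 33 mitochondrial small-subunit genes, the 136 tested cytosolic ribosomal protein genes and all 5646 genes tested, in the 3 comparisons. The MRPL curve crosses 50% at 0.07, −0.04 and −0.07, and the cytosolic curve at −0.44, −0.04 and 0.40.

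The contrast with the cytosolic ribosome was large in Pcf11-13. Of 136 cytosolic ribosomal protein genes tested, 131 fell and 1 rose, with a median log2 fold change of −0.44, and 127 (93.4%) changed by more than 1.2-fold. With library totals 110 fell and 2 rose, with a median of −0.23. RPL21B fell by 1.41 and RPS14A by 0.89 on the log2 scale, though many such genes are near-identical pairs whose reads the counting had to divide. The MRPL median lay 0.51 above the cytosolic median on the log2 scale, and between 0.47 and 0.54 above it under all 18 alternatives. Both extremes came with libraries left out. Changes of scaling move both medians alike and so could not test this gap. In Pcf11-DNL, 10 cytosolic genes fell and 2 rose, their median was −0.04 (3 and 3, with a median of 0.0086, with library totals), and the MRPL median differed from it by −0.0003. Between Pcf11-DNL and Pcf11-13, 133 cytosolic genes were higher and 0 lower, with a median of 0.40 (119 higher, 0 lower and a median of 0.24 with library totals), and the MRPL median lay 0.47 below it.

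The same contrast was seen library by library. On the scale log2(CPM + 0.5), the median difference of the MRPL genes from their wild type mean was 0.0177, 0.0648 and 0.125 in Pcf11-13, −0.0044, −0.0183 and −0.0239 in Pcf11-DNL libraries and −0.0806, −0.0048 and 0.0764 in wild type. Those of Pcf11-13 lay partly within the range of the wild type libraries. Each was above the wild type library of the same replicate number, but the labels do not state that these libraries are paired. The cytosolic genes had medians of −0.472, −0.446 and −0.41 in Pcf11-13, −0.0618, 0.0049 and −0.0651 in Pcf11-DNL libraries and −0.0264, 0.0226 and 0.008 in wild type, so Pcf11-13 stood apart from the other 6 libraries. As a share of all counts the MRPL genes took 0.165 ± 0.00488% in Pcf11-13, 0.14 ± 0.000624% in Pcf11-DNL and 0.138 ± 0.0099% in wild type. Such shares use unscaled totals, on which the median of all genes in Pcf11-13 also rose, by 0.25 on the log2 scale. With TMM the MRPL genes summed to 1516 ± 39.6 CPM in Pcf11-13, 1438 ± 4.36 CPM in Pcf11-DNL and 1467 ± 69.8 CPM in wild type. The cytosolic genes took 14.3 ± 0.245% of all counts in Pcf11-13, 17.0 ± 0.314% in Pcf11-DNL and 17.1 ± 0.569% in wild type (SD, n = 3 each). Shares of a library do not give RNA per cell, and in bulk RNA less RNA per cell and fewer cells that make it cannot be told apart.

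**Figure D5:**
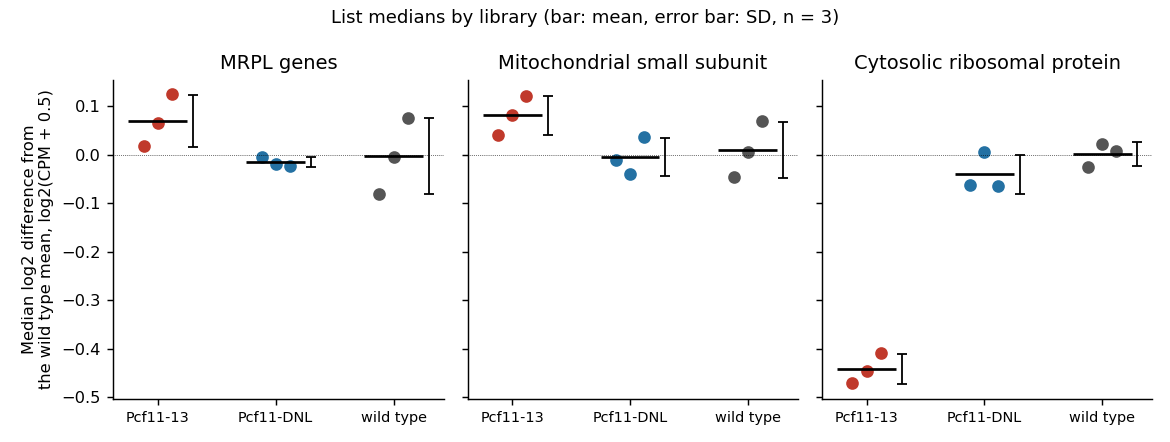
Median log2 difference from the wild type mean (y axis, on log2(CPM + 0.5)) in each library (points) of Pcf11-13, Pcf11-DNL and wild type (x axis), for MRPL, mitochondrial small-subunit and cytosolic ribosomal protein genes; bars are means and brackets SDs, n = 3. The Pcf11-13 libraries lie between 0.0177 and 0.125 for the MRPL genes and between −0.472 and −0.41 for the cytosolic genes.

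The rest of the mitochondrial translation apparatus was counted from lists written with earlier results of these data known. As background, 35.2% of all genes tested rose in Pcf11-13 and 30.9% fell, and 59.7% were higher with library totals. In Pcf11-13, 2 of the 12 other large-subunit genes rose (16.7%). They were RML2, of the L2 family, at 0.21 and MRP20, of the L23 family, at 0.17 on the log2 scale (edgeR, adjusted p = 0.00119 and 0.0349). IMG1, of the L19 family, was the 1 that fell, with a log2 fold change of −0.19 (edgeR, adjusted p = 0.013). With library totals 8 of the 12 were higher and 0 lower. Of the 33 small-subunit genes 7 rose (21.2%) and none fell (31 and 0 with library totals), with a median of 0.08. The smallest adjusted p belonged to RSM19 at 0.35, MRP2 at 0.34 and MRPS16 at 0.25 (edgeR, adjusted p = 0.00381, 0.00809 and 0.00963). The small subunit and the MRPL genes thus had medians within 0.01 of each other (0.0766 and 0.0694).

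Genes that act on the mitochondrial ribosome were counted in the same way, beside the same shares of 35.2% higher and 30.9% lower over all genes. Of 9 translation factor genes 4 rose and 2 fell, with a median of 0.16: RRF1, the ribosome recycling factor, had a log2 fold change of 0.58 (edgeR, adjusted p = 8.38e-05), MEF2 had 0.34 and the elongation factor gene MEF1 had 0.23. The 2 that fell were MRF1, the peptide chain release factor, at −0.17 and TUF1, the elongation factor Tu, at −0.13. Of 8 assembly genes 3 rose and 1 fell; AFG3 and YTA12, the subunits of the m-AAA protease that processes MRPL32, had log2 fold changes of 0.29 (edgeR, adjusted p = 6.91e-05) and 0.15 (edgeR, adjusted p = 0.0128), the rRNA methyltransferase gene MRM2 had 0.25, and MRM1, another rRNA methyltransferase, had −0.18. Of 12 synthetase genes 5 rose and 2 fell, with MSF1 (phenylalanine) at 0.53 and MST1 (threonine) at 0.41, against ISM1 (isoleucine) at −0.77 (edgeR, adjusted p = 1.76e-08) and MSW1 (tryptophan) at −0.30. Of 13 translational activator genes 5 rose, among them ATP22, for ATP6 mRNA, at 0.44 (edgeR, adjusted p = 6.73e-07) and PET111, for COX2 mRNA, at 0.37, which had the smallest adjusted p, and 1 fell, PET122, for COX3 mRNA, at −0.42. Genes that fell in these lists were named after their values were seen. With library totals as the scaling, the genes called higher numbered 6 translation factors, 6 assembly genes, 10 synthetases and 10 activators, while 59.7% of all genes tested were higher. IMG1, MRF1, TUF1 and MRM1 turned to log2 fold changes of 0.02, 0.05, 0.08 and 0.04, none past the threshold, and ISM1, at −0.55, was the only gene called lower in these lists. In Pcf11-DNL these 6 lists held 0 genes that rose and 3 that fell: TUF1 at −0.14, GEP3, a GTPase of small-subunit assembly, at −0.16 and CBP3, for COB mRNA, at −0.18 (edgeR, adjusted p = 0.045, 0.0499 and 0.0462). Over all genes tested 8.73% rose in Pcf11-DNL and 4.3% fell.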

How the data were processed

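RNA selected for poly(A) was read as pairs of 150 bases, per the labels, in 9 libraries of 3 groups. The authors deposited 1 table of expected counts per gene (estimated read counts, 10.8% of them not whole), without normalization. The submitters' processing notes name Trimmomatic 0.38, FastQC, STAR 2.6.1b, RSEM 1.3, DESeq2 1.26.0 and the build sacCer3; the part each tool played, the settings, the annotation and the strand are not given in the sources consulted. Of the 5928 genes, 5919 matched the R64 annotation by systematic name, 5901 as protein-coding.

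Counts were rounded and fitted in R 4.3.3 with edgeR 4.0.16: filterByExpr with a minimum count of 10 (282 genes removed), TMM, 1 quasi-likelihood fit of the 3 groups over all 9 libraries, and two-sided F tests adjusted by Benjamini-Hochberg over 5646 genes. The biological coefficient of variation came to 4.59%. Levels are CPM of TMM-scaled totals, and intervals are 95%. The scripts were tested on simulated counts. Other settings tried were library totals, DESeq2 size factors, TMM without ribosomal protein genes, no filter, a mean of at least 5 CPM, the DESeq2 1.42.0 Wald test, fits of the groups compared alone, the replicate number as a block, and each library left out.

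Residuals of Pcf11-13 and wild type libraries with the same replicate number correlated at 0.347, 0.234 and 0.142. The main fit did not pair the libraries, and the replicate number entered as a block only among the other settings. The same-number correlations of the other group pairs lay between −0.102 and 0.112.

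The 34 genes, the other lists and the tests were chosen with earlier results of these data known, so no list was given a test. Genes given in full were the 4 highest and 4 lowest log2 fold changes among called MRPL genes in each comparison, and the 2 highest and 2 lowest levels per kb of coding length. Of each other list up to 3 genes with the smallest adjusted p in its main direction were named. No promoter or protein table was used here; promoter windows and sites were read from the R64 genome by coordinates. The labels call the replicates biological without saying how cultures were separated.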

Additional observations from a re-analysis of the deposited data

How the results depend on the processing

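In Pcf11-13 the gap between the MRPL and cytosolic medians was 0.51 on the log2 scale, and 0.474 to 0.5354 with libraries left out. With libraries left out the gap was −0.0032 to 0.0595 in Pcf11-DNL against wild type, and −0.4966 to −0.4507 in Pcf11-DNL against Pcf11-13. A change of scaling moves both medians by nearly the same amount, so the scalings tried could not test this gap.

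The counts in Pcf11-13 depended on the processing. The 9 higher genes became 3 with the DESeq2 Wald test, 4 with size factors of DESeq2, 4 with only the 2 groups fitted, 22 with library totals and 4 to 10 with libraries left out. The 4 lower genes became 1 with library totals and 1 to 6 with libraries left out. The median became 0.2824 with library totals, which moved the median of all genes by a similar amount, and 0.0353 to 0.1068 with libraries left out. MRPL22 and MRPL36 turned to 0.0747 and 0.0262 with library totals.

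In Pcf11-DNL against wild type, 0 genes were higher under every alternative run and 0 to 1 lower with libraries left out. The median became −0.0526 with the DESeq2 Wald test, −0.0528 with size factors of DESeq2, 0.0072 with library totals and −0.0585 to 0.0211 with libraries left out, its sign therefore depending on the setting. Between Pcf11-DNL and Pcf11-13, library totals gave 0 higher, 22 lower and a median of −0.2335. Over all genes that setting gave 870 higher, 2982 lower and a median of −0.1803. With libraries left out 2 to 3 MRPL genes were higher, 9 to 11 lower and the median −0.0877 to −0.0376. Genes that differed among the 3 groups were 23 with library totals and 7 to 16 with libraries left out. The cause of these shifts was not tested.

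With the replicate number as a block in Pcf11-13 and wild type alone, 10 genes were higher and 4 lower, and with all 9 libraries 11 and 4. That block added MRPL6 and MRPL50 in both fits and lost MRPL16 in the smaller one. Depth limited the shortest genes: MRPL39, at about 3.0 CPM, had an SE of 0.209.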
